A study of Mus musculus with 14 samples.

Results

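The protein-coding genes of the cytosolic ribosome were followed in 14 whole hearts of female FS6KD mice. Members were rows of both count tables whose symbol begins with Rpl or Rps and goes on with a number (with or without a closing a, x or l), a stalk name such as Rplp0, or a. Rows of numbered extra copies and of pseudogenes (-ps) were left out. The rule matched 82 of 42396 genes listed, and 79 of them exceeded 1 CPM (counts scaled to a library total of 1000000) in at least 1 library. Of these, 78 are treated together: 43 of the large subunit, 3 of the acidic stalk (Rplp0, Rplp1, Rplp2) and 32 of the small subunit. The 79th, Rpl3l, is described against Rpl3 apart. The 3 matched genes that were not kept were the paralogs Rpl10l, at 0 counts in every library, Rpl32l, with at most 0.354 CPM, and Rpl39l, with at most 0.518 CPM. The lowest kept members reached 10.2 CPM (Rps4l) and 36.4 CPM (Rps28) in their highest library.

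All hearts carried FS6KD, a gene-trap knockdown of the complex I subunit Ndufs6 that models mitochondrial cardiomyopathy, on a mixed C57BL/6J and 129/Ola background. The knockout comparison set 4 Atf3-/-FS6KD hearts against 4 Atf3+/+FS6KD hearts, all at 12 weeks. The deletion was a CRISPR removal of Atf3 exons 2 to 4 in every cell, and the mice descended from intercrossed founders. The AAV comparison set 3 hearts of mice injected as neonates with MyoAAV2-shAtf3, a muscle-directed viral vector carrying a hairpin RNA against Atf3, against 3 with MyoAAV2-shCtrl. The series text reads as hearts taken 12 weeks after injection, and no sample label gives the age of these mice. Atf3 encodes a stress-induced transcription factor. Every direction in the AAV comparison rests on the sample labels, because the columns named for Atf3 in the count table belong to the libraries labelled MyoAAV2-shCtrl. Total counts per library ran from 30085185 to 40534680 in the AAV experiment. In the knockout experiment replicates 1 and 2 of both genotypes held 33914770 to 42409434 counts and replicates 3 and 4 held 112904172 to 134920585. Whole-gene Atf3 counts did not follow the labels: the 4 Atf3+/+FS6KD hearts averaged 11.5 ± 9.53 CPM (SD) and the 4 Atf3-/-FS6KD hearts 25.1 ± 9.64 CPM, and the AAV groups stood at 12.5 ± 2.13 CPM with the labelled MyoAAV2-shCtrl and 16.6 ± 4.52 CPM with the labelled MyoAAV2-shAtf3 (SD, n = 3 each). The edgeR quasi-likelihood adjusted p was 0.480 and 0.420 for these differences. The counts are per whole gene, so reads from exons outside the deletion can enter them, no value within the deleted exons was analysed here, and the directions of the knockout comparison rest on the sample labels too. All 10 cardiomyocyte markers lay above 1 CPM in every group. The 10 fibroblast markers had a median log2 fold change of 0.33 in Atf3-/-FS6KD hearts, with 10 of 10 higher and 0 called, and of -0.50 with MyoAAV2-shAtf3 as labelled, with 10 of 10 lower and 4 called. Of all genes tested edgeR called 0% in the knockout comparison and 0.539% in the AAV comparison. The summed level of those 10 markers was 2673 to 3739 CPM in Atf3+/+FS6KD, 3536 to 4323 CPM in Atf3-/-FS6KD, 3678 to 4610 CPM with MyoAAV2-shCtrl and 2880 to 3001 CPM with MyoAAV2-shAtf3. For cardiomyocyte markers 9 of 10 were lower in Atf3-/-FS6KD (median -0.16) and 10 of 10 higher with MyoAAV2-shAtf3 (median 0.10), with 0 called in either. Of 10 macrophage markers 9 were higher in Atf3-/-FS6KD (median 0.29) and 9 lower with MyoAAV2-shAtf3 (median -0.21), with 0 called, and their summed level was 351 to 432, 388 to 580, 536 to 607 and 469 to 516 CPM in the same order of groups. No marker of these 3 lists was at 0. The part of these cell types in the results below was not tested, and in whole tissue fewer cells of a type cannot be told apart from less RNA per cell.

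A cytosolic ribosome joins a small subunit, which decodes the mRNA, and a large subunit, which forms peptide bonds, and each incorporates a set of ribosomal proteins (Rps and Rpl) in near equal numbers. Surplus ribosomal proteins that find no partner are degraded, and the mRNAs of these proteins typically start with a pyrimidine tract, the 5′ terminal oligopyrimidine motif, through which mTOR controls their translation. In striated muscle the large subunit protein Rpl3 is partly replaced by its paralog Rpl3l, which is restricted to heart and skeletal muscle.

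The starts of the Rpl3 and Rpl3l coding sequences are shown because these paralogs are compared as a pair. The first 30 coding bases of each follow, 5′ to 3′ and in the GRCm38 annotation, with the differing bases in capitals.

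Rpl3: atgtcTcacAggaaAttctcAgcTccCAgg

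Rpl3l: atgtcCcacCggaaGttctcTgcCccTCgg

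These stretches differed at 7 of 30 positions. Rpl3 lies on the minus strand at chr15:80077781-80083406 and Rpl3l on the plus strand at chr17:24727826-24736143. Over the whole coding sequence (1209 and 1221 bases) 73.0% of aligned columns were identical, the longest identical run was 22 bases, and no window as long as a read was shared.

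Bases around annotated starts are shown for the 3 members described first in the knockout comparison, for Rpl41, one of the 3 members of highest level per kilobase, and for Rpl3l. Each window spans 10 bases before and 20 bases from the annotated RefSeq start (GRCm38.p6), 5′ to 3′ on the gene's strand, with its longest run of C and T in capitals.

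Rps12, chr10:23787190-23787219, minus strand: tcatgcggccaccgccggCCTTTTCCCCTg

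Rps27, chr3:90213629-90213658, minus strand: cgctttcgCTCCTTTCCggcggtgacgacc

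Rps18, chr17:33955646-33955675, minus strand: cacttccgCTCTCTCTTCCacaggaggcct

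Rpl41, chr10:128549149-128549178, minus strand: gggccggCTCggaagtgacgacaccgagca

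Rpl3l, chr17:24727816-24727845, plus strand: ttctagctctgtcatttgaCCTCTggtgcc

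For Rps12 the start used for the window lies inside the annotated gene extent (chr10:23785183-23787383) and not at its 5′ end. The runs of C and T were 11 bases in Rps12, 9 in Rps27, 11 in Rps18, 3 in Rpl41 and 5 in the Rpl3l window shown. Rpl3l has a further annotated start, with a window at chr17:24732675-24732704 and a run of 4 bases. Of the 79 members 58 had a RefSeq window, some more than 1, giving 70 windows. A run of C and T of at least 8 bases, counted on the gene's strand, occurred in 32.9% of member windows and in 11.2% of the 32851 windows of all genes. The letters CTTTCC occurred in 12.9% of member windows and 1.28% of all windows. In the wider stretch of 300 bases around the start, the letters CCGGAAG, searched on both strands, were present in 35.7% of member stretches and 8.86% of all. A match is a description of these letters and not of a site in use.

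Members were compared among themselves by CPM per kilobase of the shortest principal transcript, over all 14 hearts. The median member stood at 305 CPM per kb, with the middle 50% between 233 and 400. The highest were Rplp1, a protein of the stalk that recruits translation factors, at 887 ± 139 CPM per kb (SD over libraries, n = 14), Rps29 at 721 ± 96.4 and Rpl41, the smallest ribosomal protein, at 706. The lowest were Rps28 at 114, Rps27l at 102 and Rps20 at 47.2 CPM per kb. The value of Rps20 divides by an annotated transcript of 3706 bases, while the median member transcript has 681. Rps4l has no annotated length. Rpl3 stood at 195 ± 31.2 CPM per kb and Rpl3l at 150 ± 21.0.

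**Figure D1:**
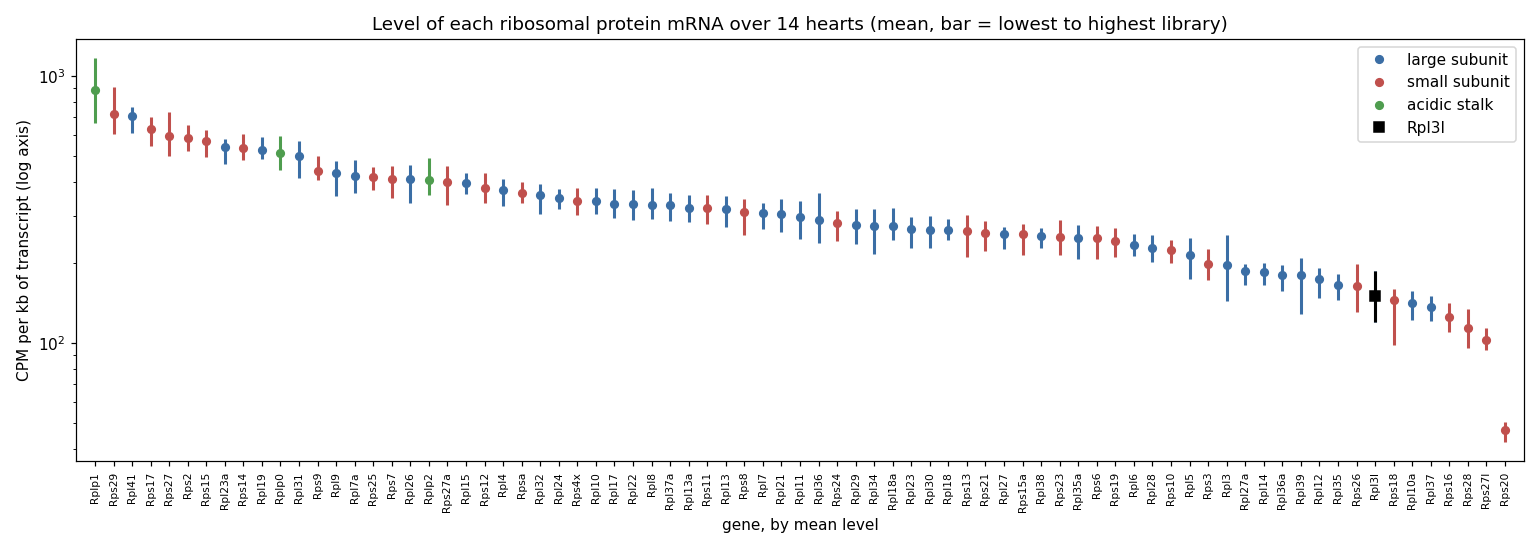
Mean level of the members with a length, 1 left out of the drawing, in CPM per kb of transcript on a log axis, with the bar from the lowest to the highest of 14 libraries, coloured by subunit. The plotted means run from Rplp1 at 887 to Rps20 at 47.2 CPM per kb, and Rpl3l, the black square, lies at 150, below Rpl3 at 195.

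From the lowest to the highest library the range of a member was 1.30-fold at the median (smallest 1.18-fold, largest 1.77-fold). Within groups the SD of a member on the log2 scale was 0.09 at the median in the knockout experiment and 0.07 in the AAV experiment. Genes at similar levels (between the quartiles of the members) had medians of 0.10 and 0.08. By the SD of log2 CPM over the 14 libraries Rpl36, Rpl3 and Rps4l varied most, while by the range Rpl3 (1.77-fold) and Rplp1 (1.75-fold) led.

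Together the 78 members took 1.76 to 1.82% of all counts in the Atf3+/+FS6KD hearts and 1.83 to 2.03% in the Atf3-/-FS6KD hearts, so that the ranges did not overlap (means 1.79 ± 0.0252% and 1.93 ± 0.0904%, SD, n = 4 each). These are shares of library totals. After TMM scaling the mean log2 CPM of the members did overlap, at 7.59 to 7.67 in Atf3+/+FS6KD and 7.63 to 7.74 in Atf3-/-FS6KD. The shares with the labelled MyoAAV2-shCtrl, 1.93 to 1.997%, overlapped those with the labelled MyoAAV2-shAtf3, 1.87 to 2.003%. The ratio of large (with stalk) to small subunit counts was 1.49 to 1.54 in every heart of the knockout experiment and 1.51 to 1.53 in every heart of the AAV experiment. The shares are given as a description, without a test.

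**Figure D2:**
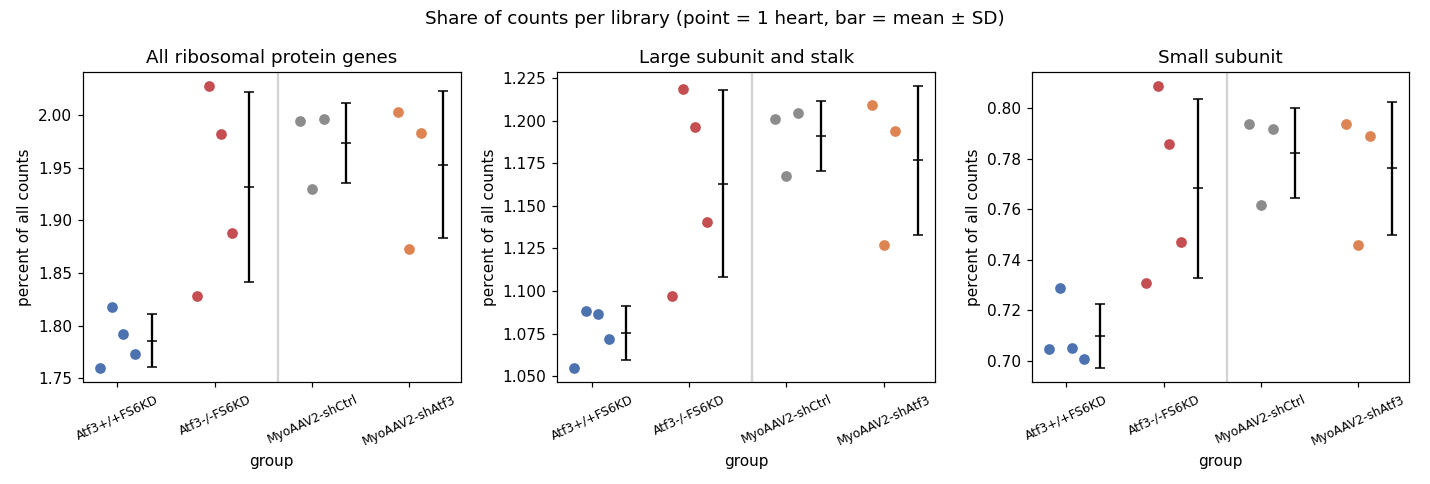
Percent of all counts taken by the 78 members, by the large subunit with the stalk and by the small subunit, for each heart (points) with mean ± SD (bars) by group, on axes that do not start at 0. The Atf3-/-FS6KD hearts lie at 1.83 to 2.03%, above the Atf3+/+FS6KD hearts at 1.76 to 1.82%, while both AAV groups overlap. Shares are of library totals, and after TMM scaling the mean log2 CPM of the members overlapped between the genotypes.

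In the knockout comparison the ribosomal protein mRNAs lay slightly higher in Atf3-/-FS6KD hearts, by a median of 0.07 on the log2 scale, and none passed the test. By sign alone 68 of 78 members were higher (87.2%), against 50.2% of the 15592 genes tested. The adjusted p (edgeR's quasi-likelihood test over all genes, Benjamini-Hochberg) was below 0.05 for 0 members and for 0% of all genes, and the smallest member value was 0.368. The unadjusted p was below 0.05 for 2 members, both higher (2 of 78, or 2.56%), against 10.1% of all genes (5.41% on the higher side), and DESeq2 called 0 members and 1.33% of all genes. The median over all genes was 0.00, and over the 693 genes at least as abundant as the median member it was -0.08, with 25.1% higher. By subunit 29 of 32 small subunit, 38 of 43 large subunit and 1 of 3 stalk genes were higher, with medians of 0.07, 0.07 and -0.01. The median ran from 0.04 without replicate 2 of Atf3-/-FS6KD to 0.08 without its replicate 1. The count of 68 ranged from 60 to 74 when a single library was left out, was 62 within replicates 1 and 2 and 69 within replicates 3 and 4, and became 77 when libraries were scaled by their totals alone (median of all genes then 0.06).

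**Figure D3:**
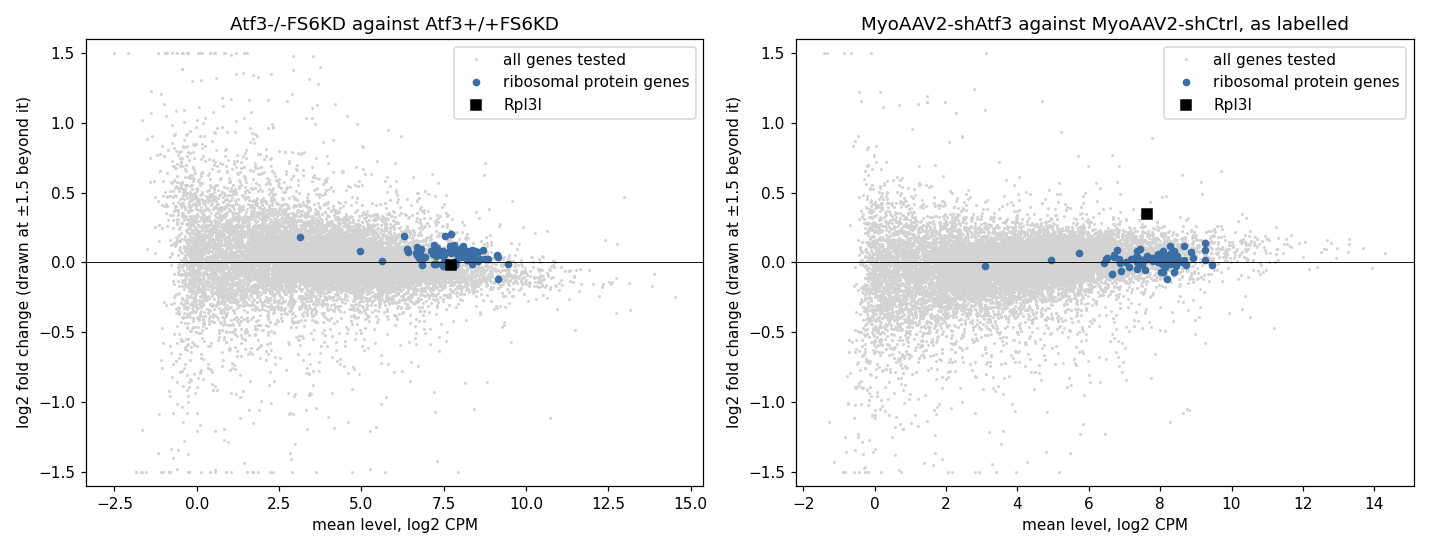
Log2 fold change against mean level (log2 CPM) for all genes tested (grey), the 78 ribosomal protein genes (blue) and Rpl3l (black square), in the knockout and the AAV comparison. Member medians lie at 0.07 and 0.02, and Rpl3l stands at -0.02 and 0.35.

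Rps12, a small subunit protein needed for cell competition in flies, measured 170, 180, 175 and 168 CPM in the Atf3+/+FS6KD hearts and 199, 208, 200 and 184 CPM in the Atf3-/-FS6KD hearts. Every heart labelled Atf3-/-FS6KD lay above every heart labelled Atf3+/+FS6KD. This gave a log2 fold change of 0.19 with an SE of 0.06, an edgeR adjusted p of 0.368 and an unadjusted p of 0.00683. Rps12 (chr10:23785183-23787383, minus strand) shares 88.8% of its read-length windows with other annotated genes, so its counts depend on how shared reads were assigned.

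Rps27, a zinc-finger protein of the small subunit, stood at 201, 206, 204 and 177 CPM in Atf3+/+FS6KD and 218, 245, 225 and 220 CPM in Atf3-/-FS6KD. These ranges did not overlap either. Their log2 difference was 0.21 (SE 0.07), at an edgeR adjusted p of 0.392. Rps27 (chr3:90212667-90213648, minus strand) shares 98.4% of its windows.

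Rps18, a protein in the head of the small subunit, gave 77.9, 57.3, 79.1 and 76.6 CPM in Atf3+/+FS6KD and 82.6, 86.3, 82.4 and 80.2 CPM in Atf3-/-FS6KD. The groups did not overlap, but replicate 2 of Atf3+/+FS6KD was far below the other 3. The log2 fold change of 0.19 (SE 0.10, edgeR adjusted p 0.561) became 0.09 without that heart. In the same heart the pseudogene row Rps18-ps4 stood at 11.5 CPM before scaling, against 0.24 to 0.41 CPM in the other 13 libraries. These 3 genes, all of the small subunit, were the members higher without overlap, or 3 of 78 (3.85%), against 3.08% of all genes, and 0 members were lower without overlap, against 2.63%.

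Rps19, the gene most often mutated in Diamond-Blackfan anemia, averaged 141 ± 6.74 CPM over the hearts labelled Atf3+/+FS6KD and 154 ± 9.24 CPM over those labelled Atf3-/-FS6KD (SD, n = 4 each), a log2 difference of 0.12 with an edgeR adjusted p of 0.536. Rpl10, which lies near the peptidyl transferase center and joins the large subunit late, measured 261 ± 15.2 and 283 ± 8.64 CPM (log2 0.12, edgeR adjusted p 0.530). Among the 10 members below 0, Rps2, a small subunit protein at the mRNA entry channel, lay furthest: 582, 627, 545 and 615 CPM in Atf3+/+FS6KD and 519, 531, 550 and 583 CPM in Atf3-/-FS6KD. Its groups overlapped, with a log2 difference of -0.12 (SE 0.06, edgeR adjusted p 0.570). The next by unadjusted p were Rpl24, Rps9, Rpl11 and the stalk gene Rplp2, at log2 fold changes of -0.02, -0.01, -0.02 and -0.03. For each of these 4 the direction changed when single libraries were left out.

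**Figure D4:**
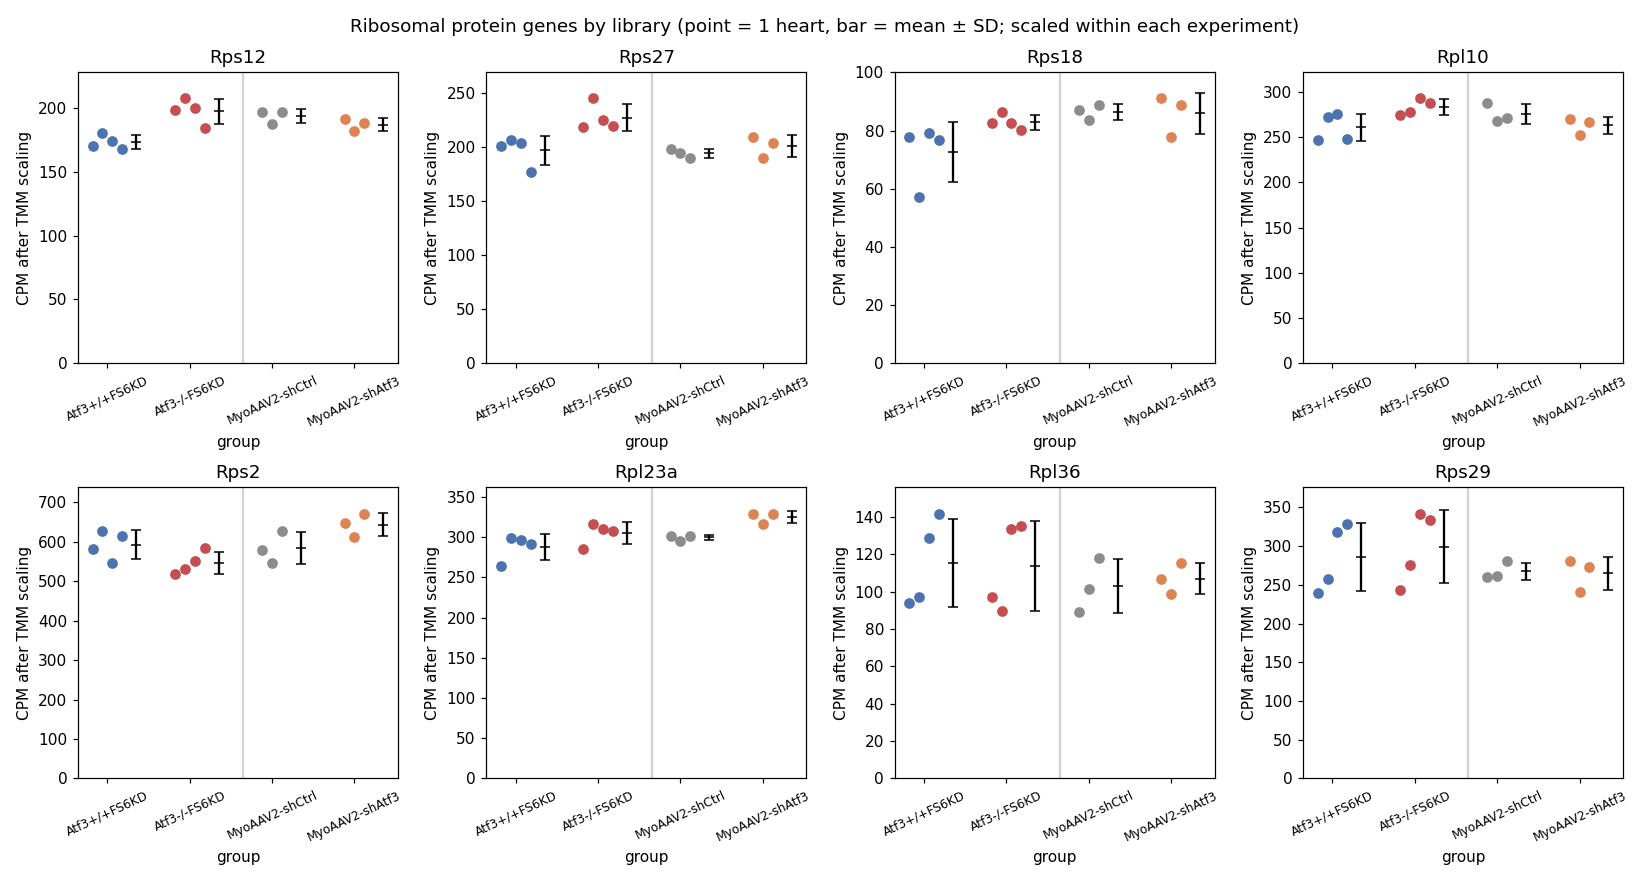
CPM after TMM scaling of 8 members in each heart (points) with mean ± SD (bars). Rps12, Rps27 and Rps18 are higher without overlap in Atf3-/-FS6KD than in Atf3+/+FS6KD hearts, Rps2 and Rpl10 lie on opposite sides in the 2 experiments as labelled, and would lie on the same side if the AAV labels were exchanged, Rpl23a is higher without overlap with the labelled MyoAAV2-shAtf3, and Rpl36 and Rps29 separate replicates 3 and 4 from replicates 1 and 2 of the knockout experiment.

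In the AAV comparison the members had a median of 0.02, and again none passed the test. The median was 0.00 without replicate 1 of MyoAAV2-shAtf3 and 0.07 without its replicate 2. By sign 56 of 78 were higher with the labelled MyoAAV2-shAtf3 (71.8%), against 49.1% of the 15225 genes tested. At an adjusted p below 0.05 edgeR called 0 members and 0.539% of all genes, and the smallest member value was 0.405. The unadjusted p was below 0.05 for 0 members, against 12.7% of all genes, and DESeq2 called 0 members and 2.02% of all genes. The 636 genes at least as abundant as the median member had a median of 0.07 with 75.3% higher. The count of 56 fell to 41 without replicate 1 of MyoAAV2-shAtf3, rose to 68 without its replicate 2, and was 26 when libraries were scaled by their totals alone, where the median of the members was -0.02 and that of all genes -0.04.

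Rpl23a, a protein at the exit tunnel that docks nascent chain factors, measured 302, 296 and 301 CPM with the labelled MyoAAV2-shCtrl and 329, 317 and 329 CPM with the labelled MyoAAV2-shAtf3. The groups did not overlap, with a log2 difference of 0.12 (SE 0.05, edgeR adjusted p 0.405). Rps15a, of the small subunit, gave 175, 163 and 162 CPM against 180, 176 and 178 CPM, also without overlap (log2 0.10, edgeR adjusted p 0.526). These were the only members whose groups did not overlap, or 2 of 78 higher (2.56%), against 8.48% of all genes, and 0 lower, against 9.94%. The others named by the smallest unadjusted p had log2 fold changes of 0.14 (Rps2), 0.11 (Rpl7a) and 0.08 (Rpl17) on the higher side, and of -0.12 (Rpl3), -0.09 (Rps21), -0.07 (Rpl10) and -0.06 (Rpl39) on the lower side.

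A fit over all 14 libraries asked whether the knockout effect differed from the AAV effect. It called 0 of 78 members at an adjusted p below 0.05, against 0.166% of the 15708 genes tested, and 3 members (3.85%) at an unadjusted p below 0.05, against 17% of all genes. The smallest p belonged to Rps12, whose effect was 0.24 log2 units greater in the knockout comparison (SE 0.07, edgeR adjusted p 0.131). This one gene passed when libraries were scaled by their totals alone (edgeR adjusted p 0.0484) and in DESeq2 (adjusted p 0.0409). The share of all genes called was not recorded for either of these fits, so the call cannot be set against it. Rps2 differed by -0.26 (edgeR adjusted p 0.196) and Rpl10 by 0.18. The experiments share no libraries. In both, 49 of 78 members were higher (62.8%) and 3 lower, against 17.8% and 18.8% of the 15109 genes tested in both. If the AAV labels were exchanged, these counts would be 19 of 78 higher and 7 lower, against 4840 and 4744 of all genes.

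Replicates 3 and 4 of the knockout experiment, sequenced more deeply than replicates 1 and 2, were compared with them after the data were seen, with genotype kept in the fit. Each depth class held 2 hearts of each genotype, and the labels name no batch. Of the members 34 of 78 (43.6%) had an unadjusted p below 0.05, 13 higher and 21 lower in the deep libraries, against 14.8% of all genes. Without overlap 11 members were higher (14.1%) and 18 lower (23.1%), against 5.87% and 3.19% of all genes. At an adjusted p below 0.05 edgeR called 3 members (3.85%) against 0.353% of all genes. With any single library left out 0 members were called, and DESeq2 called 20 (25.6%), against 4.78% of all genes.

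The called members were Rpl36, Rplp2 and Rps29, all higher in the deep libraries. Rpl36, of the large subunit, measured 94.2, 97.3, 128.8 and 141.9 CPM in replicates 1 to 4 of Atf3+/+FS6KD and 97.2, 89.5, 133.6 and 135.3 CPM in Atf3-/-FS6KD. The 4 deep libraries lay above the 4 shallow ones in both genotypes (log2 difference 0.51, SE 0.05, edgeR adjusted p 0.0335). Rplp2 averaged 155 ± 4.11 CPM in the shallow and 201 ± 5.76 CPM in the deep libraries (SD, n = 4 each). Rps29, a zinc-binding protein of the small subunit, averaged 254 ± 16.8 and 331 ± 9.91 CPM. Rpl26 and Rpl9, of the large subunit, lay lower in the deep libraries without overlap, at 223 ± 10.5 against 191 ± 9.82 CPM and at 302 ± 12.0 against 259 ± 14.3 CPM, with edgeR adjusted p of 0.0683 and 0.107. Over the 77 members with a length, Spearman's rho of the depth difference with transcript length was -0.21, as a description. With the depth class as a term in the knockout fit, 0 members were called and 68 were higher.

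Rpl3l was compared with Rpl3 because the paralogs occupy the same place in the large subunit. Rpl3 shares 79.2% of its read-length windows with other annotated genes and Rpl3l 0%. The counts of Rpl3, and so its ratio and relation to Rpl3l, depend on how shared reads were assigned. Rpl3 measured 227, 236, 245 and 233 CPM in Atf3+/+FS6KD and 231, 301, 258 and 192 CPM in Atf3-/-FS6KD, and Rpl3l 205, 247, 181 and 225 CPM against 233, 165, 193 and 255 CPM. The genotypes overlapped for both genes, and the Atf3-/-FS6KD hearts spread over a wider range of Rpl3. For Rpl3 the fitted log2 difference was 0.06 (SE 0.12, edgeR adjusted p 0.894) and for Rpl3l -0.02 (SE 0.14, edgeR adjusted p 0.973). The log2 ratio of Rpl3l to Rpl3 averaged -0.14 ± 0.21 in Atf3+/+FS6KD and -0.22 ± 0.55 in Atf3-/-FS6KD (exact permutation test, two-sided, p = 0.857, n = 4 each, smallest possible p 0.0286).

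In the AAV experiment Rpl3l measured 161, 167 and 199 CPM with the labelled MyoAAV2-shCtrl and 236, 205 and 230 CPM with the labelled MyoAAV2-shAtf3. All 3 of the latter lay above the former. The log2 difference of 0.35 (SE 0.09) had an edgeR adjusted p of 0.177 and an unadjusted p of 0.00435. Across alternatives the adjusted p ran from 0.0189 (DESeq2) to 0.466, and it was 0.0399 with no filter on low counts and 0.0191 without replicate 3 of MyoAAV2-shCtrl. Rpl3 measured 336, 316 and 268 CPM against 289, 263 and 296 CPM, with overlap (log2 -0.12, edgeR adjusted p 0.636).

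The log2 ratio of Rpl3l to Rpl3 was -1.06, -0.92 and -0.43 with the labelled MyoAAV2-shCtrl and -0.30, -0.36 and -0.36 with the labelled MyoAAV2-shAtf3, without overlap. The difference of 0.46 had an exact two-sided permutation p of 0.1, the smallest that 3 against 3 allows (adjusted over 6 ratio tests, p = 0.2 in the same exact permutation test). Relative to the mean log2 level of the 10 cardiomyocyte markers, Rpl3l was higher by 0.24 (exact permutation p = 0.1, n = 3 each), and those markers themselves had a median of 0.10. Of 10 skeletal muscle markers, which include Acta1 that heart muscle also expresses, 3 were measured in the knockout comparison, all lower in Atf3-/-FS6KD (median -0.96, 0 called), and 2 in the AAV comparison, 1 higher and 1 lower. Their summed level was 1466 to 3772 CPM in Atf3+/+FS6KD, 1039 to 1228 CPM in Atf3-/-FS6KD, 1601 to 2651 CPM with MyoAAV2-shCtrl and 2343 to 2924 CPM with MyoAAV2-shAtf3, and their part in the Rpl3l values was not tested. The effect on Rpl3l in the knockout comparison minus that in the AAV comparison was -0.37 (edgeR adjusted p 0.366).

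Rpl3l made up 32.4 to 57.0% of the summed CPM of both genes across the 14 hearts, while that sum stayed between 427 and 526 CPM. Over the 8 hearts of the knockout experiment Rpl3l was lower where Rpl3 was higher, with Pearson's r = -0.835 (exact permutation p = 0.00501, Benjamini-Hochberg adjusted 0.02004 over 4 relations) and Spearman's rho = -0.762 (exact permutation p = 0.0368, adjusted 0.0925). Without the 2 hearts farthest from the median of Rpl3, replicates 2 and 4 of Atf3-/-FS6KD, r was -0.574. Within replicates 1 and 2 it was -0.843 and within replicates 3 and 4 -0.893 (4 hearts each). Rpl3l also followed the cardiomyocyte markers (r = 0.782, exact permutation p = 0.0240, adjusted 0.0480, and rho = 0.714, p = 0.0576, adjusted 0.0925, n = 8). Without the 2 hearts farthest from the median of these markers r was 0.734, and within the depth classes it was 0.878 and 0.749. Rpl3 against the fibroblast markers gave r = 0.486 (exact permutation p = 0.217, n = 8). For the mean of the 78 members against the fibroblast markers r was 0.690 (exact permutation p = 0.0588, adjusted 0.0784, n = 8) and 0.503 without its 2 farthest hearts. The 8 hearts pool both genotypes, and with each genotype centred on its own mean r was 0.374 for this relation, 0.658 for Rpl3 against the fibroblast markers, 0.880 for Rpl3l against the cardiomyocyte markers and -0.834 for Rpl3l against Rpl3. No r was computed within a single genotype, and Rpl3 spanned 227 to 245 CPM in Atf3+/+FS6KD and 192 to 301 CPM in Atf3-/-FS6KD. The AAV hearts were not part of these relations. With the labelled MyoAAV2-shCtrl Rpl3l was lower where Rpl3 was higher. With the labelled MyoAAV2-shAtf3 the heart lowest in Rpl3 (263 CPM) was also lowest in Rpl3l (205 CPM).

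**Figure D5:**
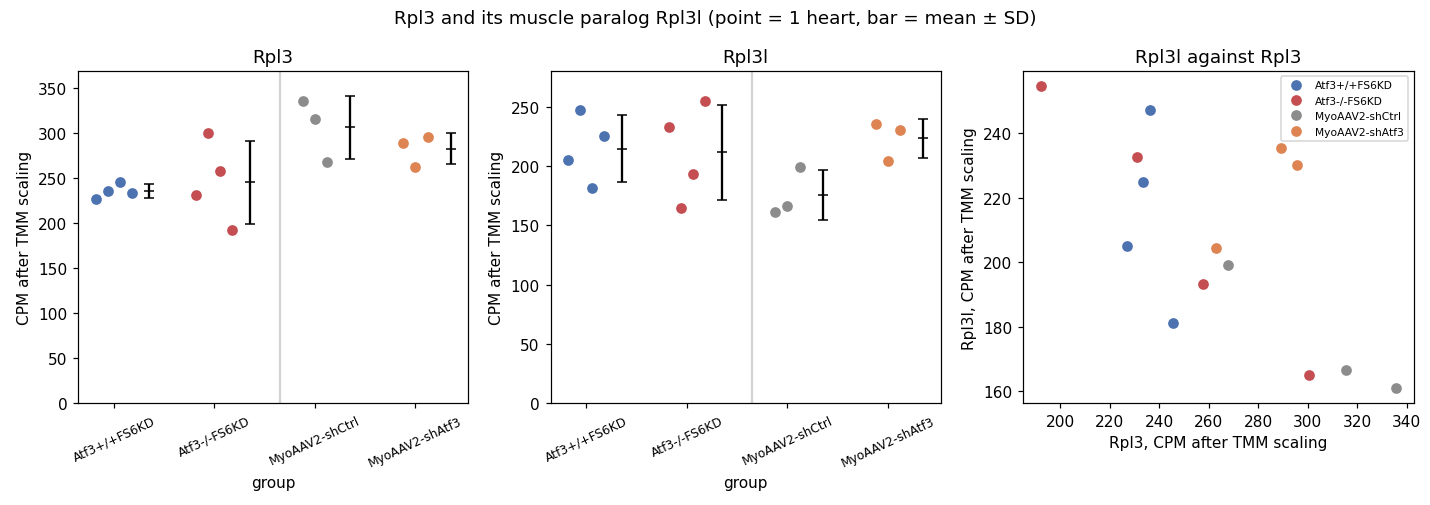
CPM after TMM scaling of Rpl3 and Rpl3l in each heart (points) with mean ± SD (bars), and Rpl3l plotted against Rpl3. Rpl3l with the labelled MyoAAV2-shAtf3 lies at 205 to 236 CPM, above the labelled MyoAAV2-shCtrl at 161 to 199 CPM.

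Ribosomal proteins whose symbols fall outside the rule included Rack1, Fau, Rps3a1, Rpl36al, Rpl22l1, Rpl7l1 and Rps27rt. Of these 7, 7 were higher in the knockout comparison and 6 in the AAV comparison, with medians of 0.08 and 0.06, and 0 were called. Rack1, a scaffold at the head of the small subunit, averaged 197 ± 5.25 CPM over the hearts labelled Atf3+/+FS6KD and 209 ± 9.28 CPM over those labelled Atf3-/-FS6KD (SD, n = 4 each), and 212 ± 9.004 and 216 ± 15.9 CPM in the AAV groups (SD, n = 3 each). Fau, which encodes a small subunit protein fused to a ubiquitin-like one, was the one of the 7 below 0 in the AAV comparison (log2 -0.01).

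Among 36 genes of ribosome biogenesis, the nucleolar factors that process rRNA and assemble subunits, 29 were higher in Atf3-/-FS6KD (median 0.09) and 26 were lower with the labelled MyoAAV2-shAtf3 (median -0.05), with 0 called in either. Nop56, a core protein of box C/D small nucleolar ribonucleoproteins, had the smallest unadjusted p of that list in the knockout comparison (21.8 ± 1.33 against 24.8 ± 1.16 CPM, SD, n = 4 each, edgeR adjusted p 0.420), and Rrp12, a factor of subunit export, in the AAV comparison (log2 -0.23, edgeR adjusted p 0.367). Of 8 proliferation markers 7 were measured in the knockout comparison, with 5 higher in Atf3-/-FS6KD (median 0.67), and 7 of 8 were lower with the labelled MyoAAV2-shAtf3 (median -0.58), with 0 called in either. Their summed level was 51.9 to 65.5 CPM in Atf3+/+FS6KD, 56.9 to 76.1 CPM in Atf3-/-FS6KD, 55.5 to 73.6 CPM with MyoAAV2-shCtrl and 54.5 to 61.6 CPM with MyoAAV2-shAtf3. None was at 0, and their part in the biogenesis and small nucleolar RNA host values was not tested. Of 13 genes that host small nucleolar RNAs, 11 were higher in the first (median 0.18) and 9 lower in the second (median -0.24), with 0 called. The smallest unadjusted p of that list in the AAV comparison belonged to Gas5 (22.8 ± 1.70 against 18.2 ± 0.667 CPM, SD, n = 3 each; edgeR adjusted p 0.152) and Snhg18 (edgeR adjusted p 0.176). Of 19 translation factors and similar genes whose mRNAs also start with a pyrimidine tract, 11 were higher in the knockout comparison (median 0.01) and 9 in the AAV comparison (median 0.00), with 0 called. Eef1a1, the widely expressed form of elongation factor 1A, measured 1438 ± 94.7 and 1216 ± 7.92 CPM in the AAV groups (log2 -0.24, edgeR adjusted p 0.161).

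Of 28 other translation factors 11 were higher in the knockout comparison (median -0.03) and 19 in the AAV comparison (median 0.04). Eef2k, the kinase that inhibits elongation factor 2, averaged 49.1 ± 3.42 and 42.2 ± 2.27 CPM over the hearts labelled Atf3+/+FS6KD and Atf3-/-FS6KD (log2 -0.22, edgeR adjusted p 0.389). Of 20 measured genes of the RNA polymerase I machinery, which transcribes rRNA, 12 and 10 were higher, and Taf1c, a subunit of its promoter selectivity factor, had the smallest unadjusted p in the knockout comparison (log2 0.29, edgeR adjusted p 0.368). Of 19 regulators of ribosomal protein mRNA 6 were higher in the knockout comparison and 11 in the AAV comparison, and 0 of these lists' genes were called. Tsc2, which restrains mTOR, averaged 171 ± 10.4 CPM over the hearts labelled Atf3+/+FS6KD and 143 ± 4.98 CPM over those labelled Atf3-/-FS6KD (log2 -0.26, edgeR adjusted p 0.277). Myc, a transcriptional activator of ribosomal protein genes, measured 5.73 ± 1.18 CPM with the labelled MyoAAV2-shCtrl and 3.51 ± 0.174 CPM with the labelled MyoAAV2-shAtf3 (log2 -0.71, edgeR adjusted p 0.126).

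Ribosomal protein genes have many processed copies in the genome. Of the 78 genes with an annotated transcript, which include Rpl3l and leave out Rps4l, 71 shared at least 1 read-length window with another annotated gene and 32 shared at least 50% of their windows. Of the values of the members and Rpl3l 50.1% were not whole numbers. The 11 members that shared under 10% of their windows were higher in the knockout comparison in 11 of 11 cases (median 0.06) and in the AAV comparison in 6 of 11 (median 0.00). Numbered copy rows of 5 genes (Rps28, Rps18, Rps10, Rpl10a and Rps4l) held 34.5 to 100% of the count of the gene itself. The pseudogene row Rps6-ps4 held 37.9% of the count of Rps6.

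By position the members were spread over 19 chromosomes, with 4 on X and 3 on chromosome 1. Small nucleolar RNA genes, 56 in all, lay inside 29 members. These 29 had medians of 0.08 in the knockout comparison and 0.02 in the AAV comparison, and the other 49 had 0.06 and 0.03.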

How the data were processed

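Heart mRNA libraries (TruSeq Stranded mRNA, single-end reads) were counted by the authors with featureCounts 2.0.0 on GRCm38.p6, per the submitters' processing notes. The aligner is not given in the sources used here. The deposited values are estimated counts, since some are not whole, and were rounded before testing. The test planned for counts was kept. Members and gene lists were chosen with earlier results of these data known. Genes above 1 CPM in at least 1 library were tested in each experiment with edgeR 4.0.16 (TMM scaling, quasi-likelihood test, no covariate, Benjamini-Hochberg threshold 0.05). The SE was taken from the F statistic. Per-library CPM is after TMM scaling unless given as raw or per kb, where it is the share of the library total. Correlations and ratios used exact permutation tests over hearts. Of these, only the ratio of Rpl3l to Rpl3 was listed among the planned tests. The prior count for log2 CPM was 2. DESeq2 1.42.0, limma 3.58.1, other scalings, filters, depth terms, merged copies and left-out libraries were alternatives, and the tests were tested on simulated data. Nothing states that replicates are separate litters, so p-values measure the spread between these hearts. Replicate numbers did not pair the samples, and no 2 libraries of a group agreed within sampling noise. Members by name: Rpl3 and Rpl3l always; per comparison those called, filled to 5 per direction by unadjusted p; the 3 highest, 3 lowest and 3 most variable; 3 for the difference between experiments; up to 2 per pathway list by unadjusted p, not all of which are given; and, without regard to p, ribosomal proteins outside the symbol rule. Values of 2 genes the naming covers are not reported here. Rpl26, Rpl9 and the genes named for copies or pseudogenes were chosen after their values were seen.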

Additional observations from a re-analysis of the deposited data

Results flagged for a closer look

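One value stood apart within its group of 4 hearts among 60 groups examined, where chance alone marks about 1 group in 20. Rps18 measured 57.3 CPM in replicate 2 of Atf3+/+FS6KD, 19.3 CPM from the nearest of the other 3 hearts, a gap of 0.885 of the group's range, above Dixon's critical value for 4 samples. In the same heart the raw level of the pseudogene row Rps18-ps4 was 11.5 CPM and that of Rpl14-ps1 was 8.14 CPM, while Rpl14-ps1 lay between 1.88 and 2.79 CPM in the other 13 libraries.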

How the results depend on the processing

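In both comparisons 0 members were called under every alternative run. With the replicate number as a block, edgeR called 0 members in either comparison and 0 of all genes (knockout) and 20 (AAV, against 82 without it); same-numbered hearts correlated at 0.01 to 0.15 (knockout) and -0.00 to 0.15 (AAV). Scaling by library totals alone moved the member median to 0.13 (knockout) and the log2 fold changes of Rpl3l, Rpl24, Rps9, Rpl11 and Rplp2 to 0.0392, 0.0410, 0.0470, 0.0463 and 0.0321. Within replicates 3 and 4 Rpl3l was 0.14, Rpl3 -0.0913, Rps9 0.0190 and the log2 ratio of Rpl3l to Rpl3 0.24. Rpl3l in the AAV comparison passed with no filter on low counts (0.35), in DESeq2 (0.35) and without replicate 3 of MyoAAV2-shCtrl (0.45, edgeR adjusted p 0.0191), and so did 1 member for the difference between experiments, Rps12, by totals alone (0.34) and in DESeq2 (0.23). DESeq2 called 20 members between depth classes. The cause was not tested. With single hearts left out, the knockout log2 fold changes ran from -0.12 to 0.0809 (Rpl3l), -0.0531 to 0.16 (Rpl3), -0.0443 to 0.00679 (Rpl24), -0.0333 to 0.00818 (Rps9), -0.0645 to 0.00934 (Rpl11) and -0.11 to 0.0420 (Rplp2), the ratio from -0.28 to 0.14, and Rpl3l in the AAV comparison from 0.29 to 0.45. Members called between depth classes went to 0. The AAV member median was -0.02 by totals alone. The other results kept direction and side of the threshold under the alternatives run. Leaving out 1 AAV heart leaves 2 in its group, and the exact test of the ratio could not reach 0.05 there.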

Other observations

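The pseudogene row Rpl34-ps1 took 1 of 2 levels. It stood at 16.1 to 23.3 raw CPM in 5 hearts of the knockout experiment (replicates 2 and 3 of Atf3+/+FS6KD and replicates 1, 2 and 3 of Atf3-/-FS6KD) and at 0.21 to 0.40 raw CPM in the other 9 libraries, which include all 6 of the AAV experiment. Rpl34 itself, the intact large subunit gene, ranged from 104 to 133 raw CPM in the knockout experiment.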
